A study of Oryza sativa with 60 samples.

Results

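The microRNA families osa-miR395, osa-miR399 and osa-miR827 (miR395, miR399 and miR827 below) were followed in anthers of wild-type rice of the cultivar Kitaake across 10 anther lengths. The members are all entries of the deposited mature miRNA tables whose name carries one of these 3 family numbers. They are 18 of the 582 entries, with 10 entries of miR395, 7 of miR399 and 1 of miR827. Plants were grown in a greenhouse without any treatment, and all groups share this genotype and growth condition. Each of the 30 small RNA libraries was made from the total RNA of 20 to 30 anthers, with 3 biological replicates for each length, from 0.4 mm over 0.6, 0.8, 1.0, 1.2, 1.4, 1.6, 1.8 and 2.0 mm to 2.5 mm. Each library is therefore a pool of whole anthers, and fewer cells of a type cannot be told apart from less miRNA per cell. The 30 mRNA libraries of the series were not analysed here.

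In plants these families belong to the best known nutrient-responsive miRNAs. miR395 rises in sulfate-starved Arabidopsis and targets ATP sulfurylases, which activate sulfate for assimilation, and a low-affinity sulfate transporter. miR399 rises on phosphate starvation in Arabidopsis, moves in the phloem and targets PHO2, the ubiquitin-conjugating enzyme that limits phosphate uptake and loading, while miR827 targets genes of the SPX-MFS phosphate transporters in rice. These roles are known mainly from roots and leaves.

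The length of a small RNA library is given both in its title and in its deposited name, and these differ in 30 of 30 libraries. The lengths in the deposited names 0.4, 0.6, 0.8, 1.0, 1.2, 1.4, 1.6, 1.8, 2.0 and 2.5 mm stand beside titles of 1.8, 2.0, 2.5, 0.4, 0.6, 0.8, 1.0, 1.2, 1.4 and 1.6 mm, in this order. Names that carry a bare digit such as 4 were read as 0.4 mm and the like. The lengths in the deposited names are used below, and the titled length is given beside the main results. Which of them is right was not tested. It has no bearing on the test over all 10 lengths, which only asks whether the groups differ, but it decides what a difference between 2 lengths means. Between 2.5 and 0.4 mm by name, the titles read 1.6 and 1.8 mm, which are neighbouring lengths.

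The miRNA reads per library numbered 7527 to 584897, so that a floor of 3 counts lay between 5.13 and 399 CPM, which are counts scaled to a common total of miRNA reads per library. Where other reads were listed, miRNA reads made up 0.675% to 2.51% of them all. Triggers of reproductive phased small RNAs marked the tissue in every library, with 451 to 71106 CPM of miR2118 and 1383 to 115832 CPM of miR2275. miR2118 had 1774 ± 52.5 CPM at 2.5 mm and 61129 ± 9845 CPM at 0.4 mm by name (SD, n = 3 each). Profiles were compared over the 560 entries with reads in at least 10 libraries. In 5 libraries the profile correlated below 0.85 with the mean of the other libraries of its length. These were 1.0 mm replicate 3, 1.6 mm replicate 3, 1.8 mm replicate 2 and 2.0 mm replicates 2 and 3. By the same measure, 15 of the 30 libraries were closest to the mean of another length, among them all libraries of 0.8, 1.0 and 1.8 mm. In 1.6 mm replicate 3, miR168a-5p alone took 65.8% of the miRNA reads, and in 2.0 mm replicate 2 miR1856 took 66.0%. In 4 libraries, 1.0 mm replicate 3 and all 3 of 1.6 mm, the deposited name lacks the tag Osak that all other libraries carry. The tag was taken to name a miRNA reference set, a reading that was not tested. It is called the reference set below. All libraries list the same entries.

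The 3 families differed widely in level. Over all 30 libraries the entries of osa-miR395 together averaged 1332 CPM, those of osa-miR399 694 CPM and osa-miR827 13.0 CPM. miR395 had reads in 30 libraries, with 8486 in all, miR399 in 29 libraries with 6719, and miR827 in 19 libraries with 92. A miR827 level therefore often rests on a handful of reads. All 3 families differed among the 10 lengths in edgeR's quasi-likelihood test with Benjamini-Hochberg adjustment over all 229 families tested, with an adjusted p of 0.0442 for miR395, 1.09e-04 for miR399 and 0.0128 for miR827. The background was high, since 65.5% of all families tested were called by the same rule, so that a call alone does not set these families apart. The patterns of the families were unlike each other. Over the 10 group means of log2 CPM, Pearson's r was -0.30 between miR395 and miR399, -0.08 between miR395 and miR827 and 0.21 between miR399 and miR827, given as a description over means that share libraries and depth.

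**Figure D1:**
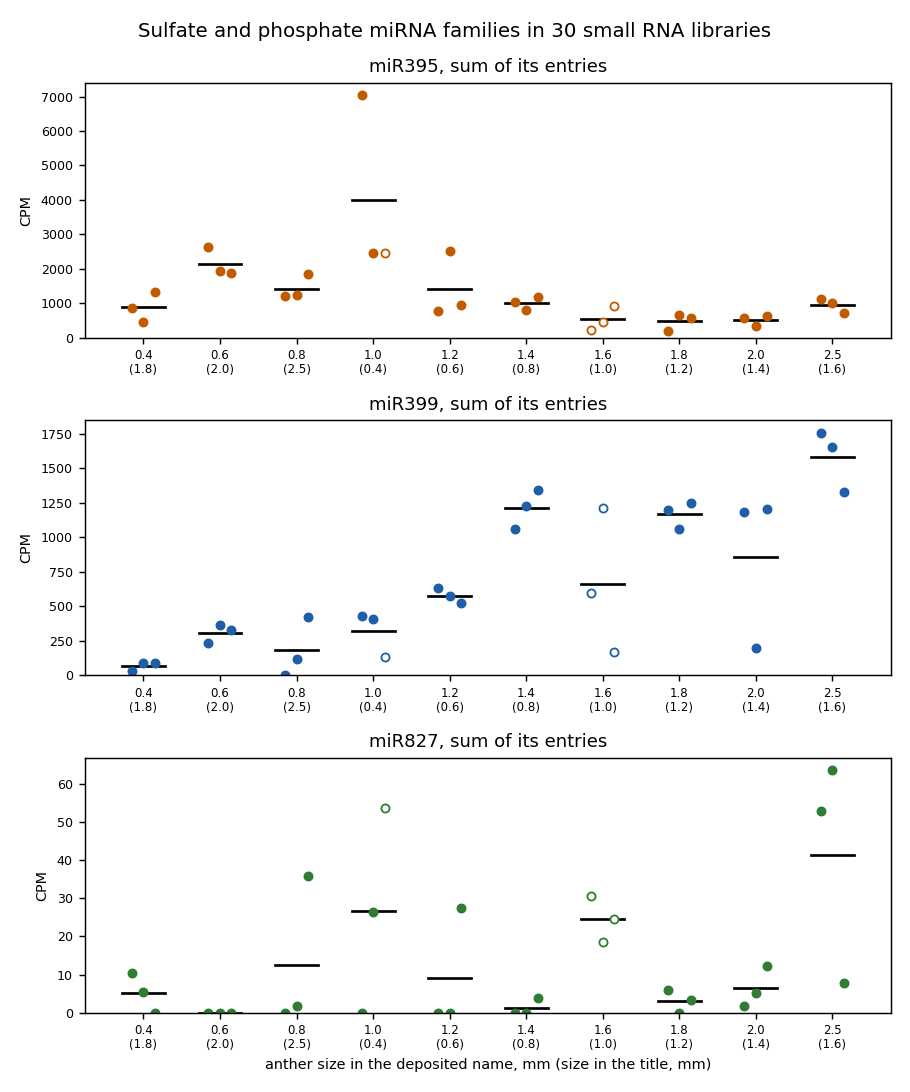
Level of the miR395, miR399 and miR827 families in CPM by the anther length in the deposited name, with the titled length beside it. Points are single libraries, open where the deposited name lacks the tag Osak, and bars mark the mean of 3 libraries. miR399 has its highest mean at 2.5 mm (1582 CPM) and its lowest at 0.4 mm (68.1 CPM), miR395 has its highest mean at 1.0 mm (3987 CPM), and miR827 is at 0 in all 3 libraries of 0.6 mm.

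miR399 was low in the shortest anthers by name and high in the longest. The libraries of 0.4 mm had 31.3, 85.8 and 87.3 CPM, those of 0.6 mm 236, 365 and 329 CPM, those of 0.8 mm 0, 119 and 425 CPM, and those of 1.0 mm 431, 408 and 129 CPM. The libraries of 1.2 mm had 631, 575 and 523 CPM, those of 1.4 mm 1060, 1230 and 1345 CPM, and those of 1.6 mm 594, 1214 and 170 CPM. Those of 1.8 mm had 1200, 1060 and 1251 CPM, those of 2.0 mm 1181, 197 and 1203 CPM, and those of 2.5 mm 1760, 1655 and 1331 CPM. No library of 0.4 to 1.0 mm exceeded 431 CPM, while every library from 1.2 mm on had at least 523 CPM except 1.6 mm replicate 3 and 2.0 mm replicate 2. Both exceptions are the libraries in which 1 other miRNA, miR168a-5p or miR1856, took most of the reads. Whether this set their miR399 level was not tested. After scaling by TMM factors, 2.0 mm replicate 2 stood at 370 CPM beside 980 and 942 CPM in the other libraries of its length. On the same scale, 1.6 mm replicate 3 stood at 282 CPM beside 449 and 957 CPM. The split between 1.0 and 1.2 mm was not kept after this scaling. There 1.0 mm replicate 1 had 519 CPM, above 505 CPM in 1.2 mm replicate 3 and 449 CPM in 1.6 mm replicate 1. The value of 0 in 0.8 mm replicate 1 comes from the shallowest library, where a floor of 3 counts corresponds to 399 CPM.

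In order of its means, miR399 ran from 1582 CPM at 2.5 mm over 1212 CPM at 1.4 mm, 1170 CPM at 1.8 mm, 860 CPM at 2.0 mm, 659 CPM at 1.6 mm, 576 CPM at 1.2 mm, 322 CPM at 1.0 mm, 310 CPM at 0.6 mm and 181 CPM at 0.8 mm to 68.1 CPM at 0.4 mm. Only 1.2 and 1.0 mm, among neighbours in this order, had libraries that did not overlap in CPM. After TMM scaling these 2 lengths overlapped, with 505 to 820 CPM at 1.2 mm and 103 to 519 CPM at 1.0 mm. The means were 1582 ± 224 CPM at 2.5 mm (titled 1.6 mm) and 68.1 ± 31.9 CPM at 0.4 mm (titled 1.8 mm), SD with n = 3 each. The lowest of the 2.5 mm libraries was far above the highest of the 0.4 mm libraries, and such gaps were not counted over all families. Here miR399 rose by 4.47 on the log2 scale (SE 0.80, edgeR adjusted p = 4.00e-05), a call that 23.6% of all families tested shared in the same direction. The median log2 fold change of all families tested was itself 0.94 in this comparison. It moved to 2.51 with DESeq2's size factors and to 0.95 with library totals, so the value relative to that median is the steadier one. It was 3.52 for miR399 in edgeR, 3.59 in DESeq2 and 3.57 with library totals. The call held in all 6 fits that left out 1 of the compared libraries, with log2 fold changes of 4.08 to 5.02.

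The steps within the course were not called for the miR399 family in edgeR. The log2 fold change was 1.89 at 1.0 against 0.4 mm (SE 0.74, adjusted p = 0.119), 1.11 at 1.6 against 1.0 mm (SE 0.71, adjusted p = 0.338) and 1.47 at 2.5 against 1.6 mm (SE 0.70, adjusted p = 0.309). DESeq2 called all 3 of them higher, with medians over all families of 1.06, 0.56 and 0.14 in the same order. The share of all families that DESeq2 called was not counted. In edgeR 8.73%, 11.4% and 1.31% of all families tested were called in either direction in these 3 comparisons, in the same order.

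Most miR399 reads fell to 3 of its 7 entries. miR399j held 43.6% of the reads, miR399d 41.9% and the merged entry miR399abc, which joins 3 family names, 9.64%. miR399d had 732, 851 and 526 CPM at 2.5 mm, against 15.6, 16.1 and 13.8 CPM at 0.4 mm, where each library had 3 reads. miR399j had 772, 539 and 607 CPM at 2.5 mm, against 0, 53.6 and 41.4 CPM at 0.4 mm. miR399abc had 211, 205 and 136 CPM at 2.5 mm, against 0, 10.7 and 13.8 CPM at 0.4 mm. In none of these 3 entries did the libraries of the 2 lengths overlap, a pattern that was not counted over all entries. All 3 rose, by 5.52 for miR399d (SE 0.89, edgeR adjusted p = 1.11e-05), 4.27 for miR399j (SE 1.17, adjusted p = 0.00324) and 4.37 for miR399abc (SE 0.87, adjusted p = 1.55e-04) on the log2 scale. Over all entries tested the median log2 fold change was 0.85, and 29.9% were called higher.

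**Figure D2:**
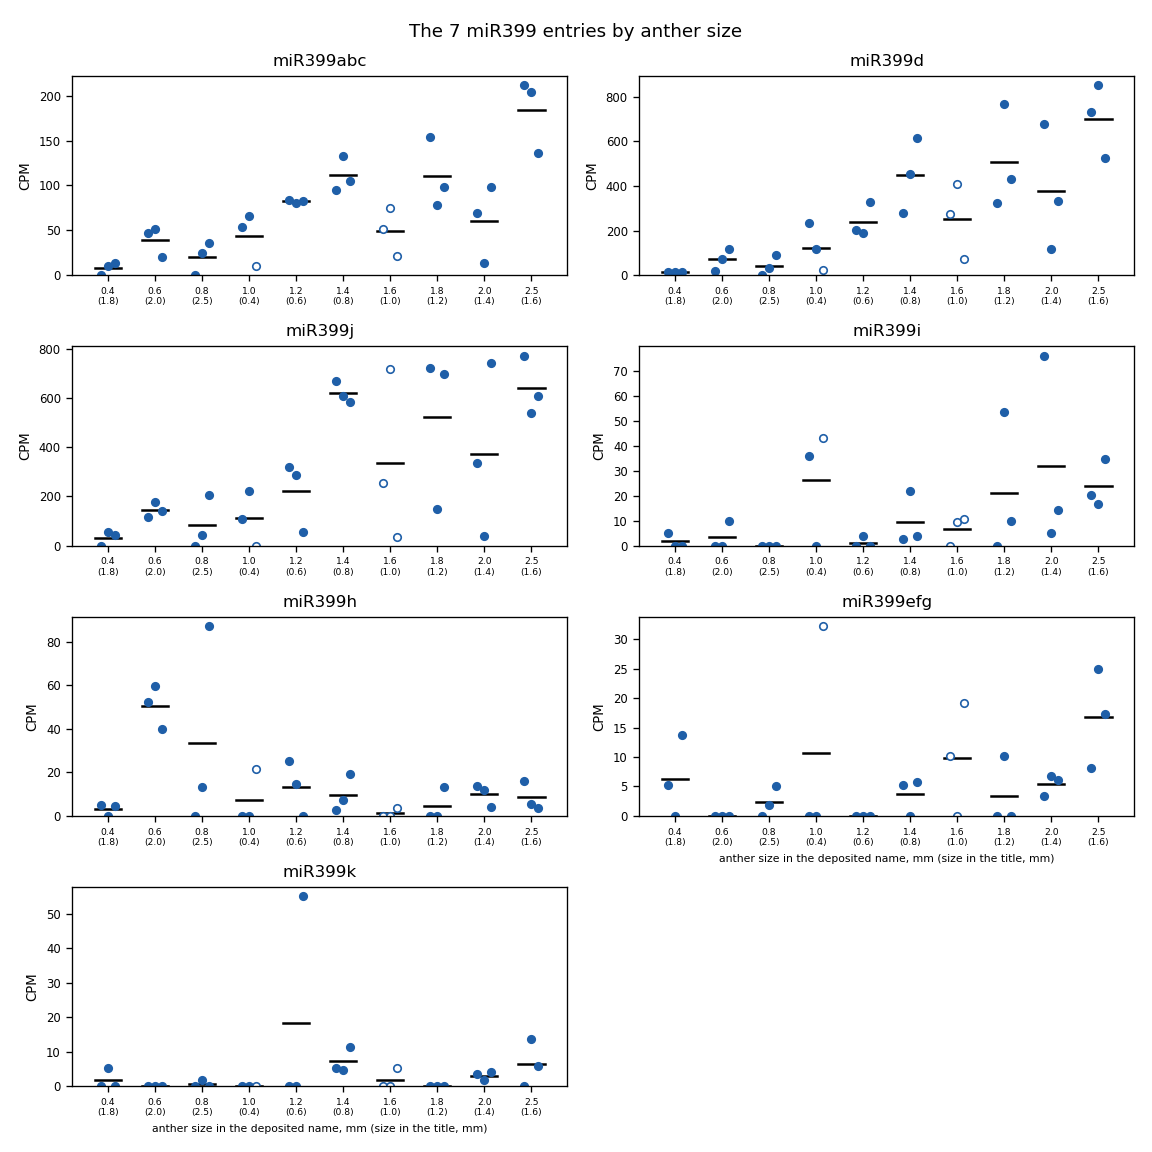
CPM of the 7 miR399 entries by the length in the deposited name, with the titled length beside it. Each library is 1 point, open where the deposited name lacks the tag Osak, with a bar at the mean of 3 libraries. The axes differ in scale. miR399d and miR399j reach similar levels at 2.5 mm (means of 703 and 639 CPM), while miR399h has its highest mean at 0.6 mm (50.6 CPM).

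The balance between miR399d and miR399j changed from library to library. miR399j had more reads than miR399d in 18 libraries and fewer in 11, and the ratio of miR399d to miR399j reads ran from 0.182 to 6.00 where both were present. Within 2.0 mm, miR399d had 678, 118 and 332 CPM while miR399j had 338, 39.3 and 744 CPM. The sources used here do not say how reads that match several near-identical members were shared among entries, so the split within a family is less certain than its sum.

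miR399h went another way. It had 52.4, 59.5 and 39.9 CPM at 0.6 mm and 0, 13.2 and 87.1 CPM at 0.8 mm, but at most 25.2 CPM in any other library. With the 3 libraries of a length pooled, it made up 17.3% of all miR399 reads at 0.6 mm (95% Wilson interval 11.7% to 24.8%) and 16.4% at 0.8 mm (11.3% to 23.3%), and 0.399% to 4.88% at each of the other lengths. These lengths are titled 2.0 and 2.5 mm. Its level did not pass the test over all lengths (edgeR adjusted p = 0.0640), though the test rests on 105 reads in all. It passed with library totals in place of TMM (adjusted p = 0.0286) and without the 5 libraries that stand apart (adjusted p = 0.0225).

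The other 3 miR399 entries were rare. miR399i had 135 reads in 18 libraries and its highest level, 75.9 CPM, in 2.0 mm replicate 1. Its summed reads were 29 at 2.5 mm and 1 at 0.4 mm, a ratio per miRNA read of 15.3 (exact 95% interval 2.54 to 626, which covers counting error only). miR399efg had 59 reads in 16 libraries and at most 32.2 CPM, and miR399k 30 reads in 12 libraries and at most 55.1 CPM. None of the 3 passed the filter on low counts, so none was tested.

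miR395 had another course, with its highest mean in anthers of 1.0 mm by name (titled 0.4 mm). The libraries of 0.4 mm had 849, 467 and 1333 CPM, those of 0.6 mm 2629, 1927 and 1865 CPM, those of 0.8 mm 1196, 1246 and 1840 CPM, and those of 1.0 mm 7055, 2460 and 2448 CPM. The libraries of 1.2 mm had 774, 2514 and 936 CPM, those of 1.4 mm 1037, 799 and 1191 CPM, and those of 1.6 mm 225, 458 and 923 CPM. Those of 1.8 mm had 195, 646 and 570 CPM, those of 2.0 mm 579, 350 and 619 CPM, and those of 2.5 mm 1122, 1003 and 703 CPM. The mean at 1.0 mm, 3987 ± 2656 CPM (SD, n = 3), leans on replicate 1. Replicates 2 and 3 of that length also exceeded every library from 1.4 mm on. They lay below 0.6 mm replicate 1 and 1.2 mm replicate 2, and 1.0 mm was not tested against 0.6 or 1.2 mm. In order of the means, 1.0 mm was followed by 0.6 mm (2141 CPM), 0.8 mm (1427 CPM), 1.2 mm (1408 CPM), 1.4 mm (1009 CPM), 2.5 mm (943 CPM), 0.4 mm (883 CPM), 1.6 mm (535 CPM), 2.0 mm (516 CPM) and 1.8 mm (470 CPM). Among neighbours in this order only 0.6 and 0.8 mm did not overlap in CPM. After TMM scaling they overlapped too, with 1407 to 2073 CPM at 0.6 mm and 505 to 2293 CPM at 0.8 mm.

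The family's call over all lengths was a narrow one. Its adjusted p of 0.0442 ranged from 0.00177 to 0.264 as each of the 30 libraries was left out in turn, and the call was kept in 15 of these 30 fits. Between single lengths the family sum was not called in edgeR. The log2 fold change was 1.87 at 1.0 against 0.4 mm (SE 0.77, adjusted p = 0.119), -2.16 at 1.6 against 1.0 mm (SE 0.77, adjusted p = 0.0681), 0.36 at 2.5 against 1.6 mm (SE 0.74, adjusted p = 0.891) and 0.07 at 2.5 against 0.4 mm (SE 0.74, adjusted p = 0.959). At the ends of the course miR395 thus had 943 ± 216 CPM at 2.5 mm and 883 ± 434 CPM at 0.4 mm (SD, n = 3 each), while the median family was 0.94 higher on the log2 scale. Relative to that median miR395 stood at -0.88 in edgeR, -0.81 in DESeq2 and -0.86 with library totals.

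A single entry carried most of the miR395 signal. The merged entry miR395bdeghijklsmnpqry, which joins 16 family names, held 92.1% of the miR395 reads and ranked 77 among all 582 entries by mean CPM. It had 174, 318 and 837 CPM at 1.6 mm (titled 1.0 mm), against 6947, 2394 and 2298 CPM at 1.0 mm (titled 0.4 mm). Its libraries of the 2 lengths did not overlap, a pattern that was not counted over all entries. It fell by 2.79 on the log2 scale (SE 0.80, edgeR adjusted p = 0.0170), 1 of 7 member entries tested to be called there, where 7.82% of all entries were called lower. The call was lost without 1.0 mm replicate 1 (-1.66, adjusted p = 0.286), without 1.6 mm replicate 1 (-2.21, adjusted p = 0.122) and without 1.6 mm replicate 2 (-2.34, adjusted p = 0.123). It was also lost with a model term for the reference set (-1.63, adjusted p = 0.402). All 3 libraries of 1.6 mm and replicate 3 of 1.0 mm, which also stands apart in its profile, lack the tag Osak. The cause of the loss was not tested. Among the libraries without the tag, the miR395 family had 225, 458 and 923 CPM at 1.6 mm and 2448 CPM in the single library of 1.0 mm.

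The other 9 miR395 entries took a larger share of the family in the longer anthers by name. In the 12 libraries of 1.6 to 2.5 mm they made up 8.82% to 30.6% of the miR395 reads, with a median of 19.0%, against 0% to 7.38% with a median of 2.93% in the 18 libraries of 0.4 to 1.4 mm. The ranges did not overlap, but some of these shares rest on few reads, with intervals that cross the gap between the ranges. In 1.8 mm replicate 1 the share was 3 of 33 reads (95% Wilson interval 3.14% to 23.6%). It was 0 of 9 reads in 0.8 mm replicate 1 (0% to 29.9%) and 2 of 34 in 1.2 mm replicate 3 (1.63% to 19.1%). By title the longer set is 1.0 to 1.6 mm, and the shorter set holds the lengths below and above it. Without the libraries of 1.6 mm, which all lack the tag Osak, the remaining 9 libraries had 8.82% to 24.0%. In 1.0 mm replicate 3, which lacks the tag too, the share was 6.14%. The sets of lengths were chosen after the shares were seen, so no test is given. Per pooled miRNA read, the merged entry had 549 CPM in the longer set and 1403 CPM in the shorter one, while miR395a had 48.4 and 18.2 CPM, miR395u 15.1 and 6.77 CPM, and miR395w 13.1 and 2.34 CPM in the same order. The other 6 entries differed by less CPM, though not always by a smaller factor. miR395c had 7.91 and 3.90 CPM, miR395f 3.62 and 1.30 CPM, and miR395v 3.16 and 2.34 CPM. miR395t had 9.26 and 7.55 CPM, miR395o 4.97 and 4.16 CPM, and miR395x 2.94 and 2.60 CPM. With each library given equal weight, the 9 entries together averaged 92.3, 75.1, 109 and 144 CPM at 1.6, 1.8, 2.0 and 2.5 mm. They averaged 108 CPM at 1.0 mm, within that range, and 23.1 to 57.2 CPM at the other 5 lengths up to 1.4 mm. At 1.0 mm their share was low beside the high level of the merged entry.

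**Figure D3:**
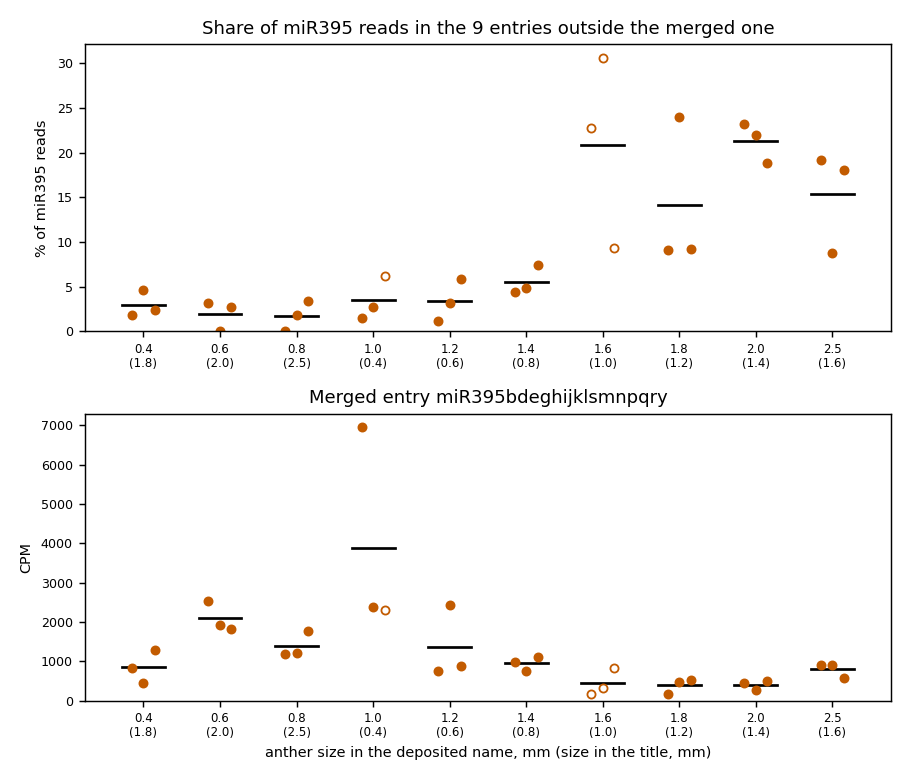
Percent of miR395 reads in the 9 entries outside the merged one (top) and CPM of the merged entry miR395bdeghijklsmnpqry (bottom) by the length in the deposited name, with the titled length beside it. Points are libraries, open where the deposited name lacks the tag Osak, and bars mark means of 3. The share is 8.82% to 30.6% in the libraries of 1.6 to 2.5 mm and 0% to 7.38% in those of 0.4 to 1.4 mm.

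miR395a was the second most abundant entry of its family, with 284 reads, and the only other one abundant enough to be tested. It had 118, 66.3 and 57.6 CPM at 2.5 mm, against 0, 0 and 4.60 CPM at 0.4 mm, from 83 reads and 1 read. The ratio per miRNA read was 43.8 (exact 95% interval 7.65 to 1752), and the difference was called in edgeR (adjusted p = 0.00145). At 1.0 mm it had 108, 13.2 and 53.7 CPM from 12 reads, again against 1 read at 0.4 mm, a ratio of 31.8 (4.71 to 1360, edgeR adjusted p = 0.0205). This second call was lost when any of 0.4 mm replicates 1 and 2 and 1.0 mm replicates 1 and 3 was left out, with adjusted p-values of 0.107, 0.108, 0.114 and 0.0518. The remaining 8 entries (miR395c, miR395f, miR395o, miR395t, miR395u, miR395v, miR395w and miR395x) had 21 to 93 reads each and mean levels of 1.72 to 9.02 CPM, and were not tested. Among them miR395t had reads in 20 libraries, with 20.7, 20.5 and 4.10 CPM at 2.0 mm and 0, 16.1 and 18.4 CPM at 0.4 mm.

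miR827 was the rarest of the 3 families, with a single entry. The libraries of 2.5 mm had 13, 23 and 4 reads, or 52.8, 63.6 and 7.68 CPM, and hold 40 of its 92 reads. Those of 1.6 mm had 30.7, 18.7 and 24.5 CPM, and are, beside those of 2.0 and 2.5 mm, the ones in which no replicate was at 0. Those of 1.0 mm had 0, 26.3 and 53.7 CPM, those of 0.8 mm 0, 1.88 and 35.9 CPM, and those of 0.4 mm 10.4, 5.36 and 0 CPM. It had no read in the 3 libraries of 0.6 mm, and at most 27.5 CPM, from 1 read, in those of 1.2 mm. The libraries of 1.4 mm had 0, 0 and 3.82 CPM, those of 1.8 mm 5.91, 0 and 3.28 CPM, and those of 2.0 mm 1.72, 5.13 and 12.3 CPM. The levels overlapped between all neighbours in the order of the means, which lay between 41.4 CPM at 2.5 mm and 0 CPM at 0.6 mm.

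No pair of lengths was called for the miR827 family in edgeR, and 1 of the 4 had an unadjusted p under 0.05. Between 2.5 and 0.4 mm it had 40 reads and 3 reads, a ratio per miRNA read of 7.04 (exact 95% interval 2.24 to 35.6), with an adjusted p of 0.0746. DESeq2 called this difference (adjusted p = 0.00980), where its median log2 fold change over all families was 2.51. Between 1.0 and 0.4 mm it had 7 reads and 3 reads, a ratio of 6.18 (1.41 to 37.1), with an adjusted p of 0.352 in edgeR. Between 1.6 and 1.0 mm the log2 fold change was 0.29 (SE 1.22, adjusted p = 0.932), and between 2.5 and 1.6 mm 0.51 (SE 1.11, adjusted p = 0.895). Both standard errors exceeded their fold changes.

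At the level of entries, 7 of the 18 members passed the filter on low counts. Of these 6 were called over all lengths, beside 67.4% of all 371 entries tested. Between 2.5 and 0.4 mm, 4 members rose (miR395a, miR399abc, miR399d and miR399j) and none fell, where 29.9% of all entries were called higher and 19.7% lower. At 1.0 against 0.4 mm, miR395a and miR399d rose, where 6.2% of all entries were called higher. miR399d had 233, 118 and 21.5 CPM at 1.0 mm against 15.6, 16.1 and 13.8 CPM at 0.4 mm, a log2 fold change of 2.99 (SE 0.85, edgeR adjusted p = 0.0205). That call was lost without 1.0 mm replicate 1 (1.89, adjusted p = 0.175) and without any 1 library of 0.4 mm (adjusted p of 0.0564 to 0.0833). At 2.5 against 1.6 mm edgeR called 0 members, beside 4.04% of all entries in either direction. In edgeR 2 members, miR399abc and miR399d, had an unadjusted p under 0.05. DESeq2 called 2 members, for which no share of all entries was counted. Such shares are also not given for the other alternative fits, so their counts of members called between lengths have no background. The median log2 fold change of the 7 tested members was 4.27 between 2.5 and 0.4 mm, beside 0.85 over all entries tested, and 5.62 beside 2.18 with DESeq2.

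**Figure D4:**
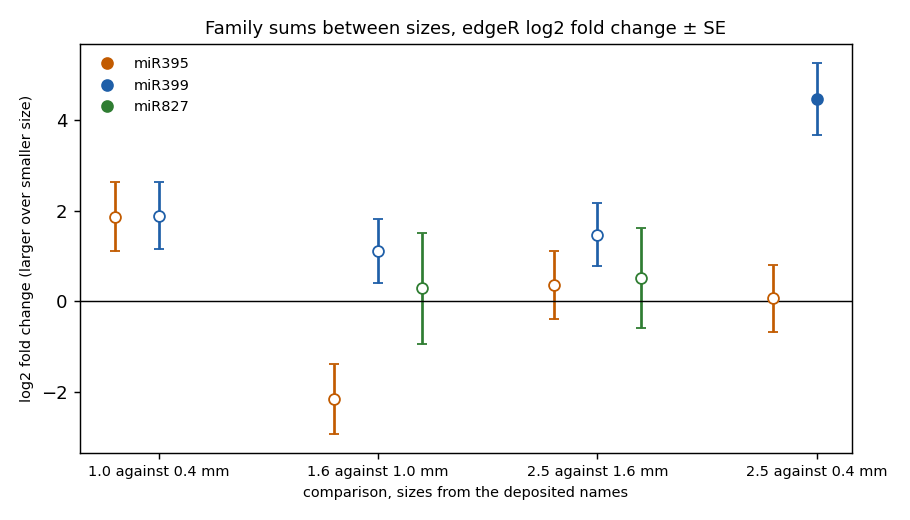
Log2 fold change, with its standard error, of each family between lengths in the deposited names, larger over smaller, filled where called. miR399 at 2.5 against 0.4 mm (4.47) is the only filled symbol, and miR827 is left out of both comparisons with 0.4 mm, where it had 3 reads.

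Other miRNAs tied to mineral nutrition give a setting for these values. Of 8 entries of the copper-responsive families miR397 (targeting laccases), miR398 (copper superoxide dismutases), miR408 (blue copper proteins) and miR528, 7 were tested, and between 2.5 and 0.4 mm 4 rose and 1 fell, with a median log2 fold change of 2.89. Of 24 entries of miR169 (targeting NF-YA factors), miR393 (auxin receptors) and miR444 (MADS-box factors), families linked to nitrogen supply, 17 were tested, and 9 rose and 0 fell there, with a median of 2.62. Over all entries tested, 29.9% were called higher and 19.7% lower, with a median of 0.85. With DESeq2 the medians were 4.26 for the copper list, 4.00 for the nitrogen list and 2.18 for all entries. At the family level miR397 had 540 ± 131 CPM at 2.5 mm and 47.9 ± 47.3 CPM at 0.4 mm (SD, n = 3 each), a log2 fold change of 3.41 (edgeR adjusted p = 8.48e-04). miR408 rose by 3.25 (adjusted p = 0.00163), miR169 by 3.15 (adjusted p = 3.61e-04) and miR393 by 5.55 (adjusted p = 1.04e-05) in the same comparison. These are calls that 23.6% of all families tested shared. miR528 and miR444 were not called, with log2 fold changes of 0.01 and 1.89, nor was miR398, with 24 reads and 3 reads and a ratio per miRNA read of 4.23 (exact 95% interval 1.28 to 21.9).

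Outside these families, the entries whose 10 group means of log2 CPM followed those of miR399 most closely were miR167dehi-5p (Pearson's r = 0.94), miR1871 (0.94) and miR169no (0.93). miR167dehi-5p had its lowest mean at 0.4 mm (3751 CPM), as miR399 did, and its highest at 1.4 mm (78420 CPM). Those closest to miR395 were miR167h-3p (0.84), miR5539ab (0.75) and miR5792 (0.73), and those closest to miR827 were miR5338 (0.80), miR812n-5p (0.79) and miR160f-5p (0.79). miR5792 and miR5539ab had their highest means at 1.0 mm, at 36284 and 652 CPM, as miR395 did. These correlations run over 10 means and describe the likeness of profiles only.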

How the data were processed

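Small RNA libraries of total RNA from pooled anthers were analysed from the raw read counts per mature miRNA that the authors deposited, whole numbers with no normalization. Each library had 2 tables with equal counts in 30 of 30 libraries, and those of all reads were used. The submitters' processing notes name cutadapt 3.0, FastQC 0.12, Bowtie2 2.5.2, HISAT2 2.1.1 and StringTie 2.1.4. The sources used here do not say which of them made these counts, or how reads matching several entries were treated. The row of reads outside miRNAs was left out of library totals; miRNA reads were 0.675% to 2.51% of the listed reads where it was present.

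CPM is the count scaled to the miRNA total of a library. Counts of entries, and of families summed by number, were tested in edgeR 4.0.16 (R 4.3.3; filterByExpr, TMM, glmQLFit, glmQLFTest) on all 30 libraries with the 10 lengths as groups, which kept 371 entries with 99.8% of the reads and 229 of 342 families. Calls needed an adjusted p under 0.05 and, between 2 lengths, a log2 fold change of 1 or more in size. The fit was tested on simulated data with the same spread for all entries and large changes in entries above a set mean count. That test does not cover rare members or libraries that stand apart. Where the smaller length had 3 counts or fewer, the ratio of pooled counts with its exact interval replaces the fitted fold change. Intervals and floors hold for counting error alone, because PCR copies were not told apart by molecular identifiers. Alternatives were DESeq2 1.42.0, library totals, no filter on low counts, the compared lengths alone, a term for the reference set, a replicate block, libraries under 50000 counts left out, libraries that stand apart left out and each library left out. Replicates were biological, per the labels.

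The members and lists were chosen with earlier results of these data known. All members are described, those with reads in at least 10 libraries with their values, which all 18 had; the 3 entries most like each family by Pearson's r over 10 means are named. mRNA tables were not used here, nor were sequences of these miRNAs.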

Additional observations from a re-analysis of the deposited data

How the results depend on the processing

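Depth limits miR827 and 11 of the 18 members, which were too rare to test. DESeq2 moved the median log2 fold change of all families by 0.99 at 1.0 against 0.4 mm and by 1.57 at 2.5 against 0.4 mm. The miR399 calls over all lengths and at 2.5 against 0.4 mm held in every alternative run. So did, wherever tested, those of miR399abc, miR399d and miR399j at 2.5 against 0.4 mm. For single entries, 319 of 362 alternative values kept direction and call, 32 lost it, 11 gained it and none reversed. The causes of the changes below were not tested.

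DESeq2 gave log2 fold changes past the threshold for miR395 at 1.0 against 0.4 mm (2.77) and 2.5 against 0.4 mm (1.70), and for miR399 at 1.0 against 0.4 mm (2.67), 1.6 against 1.0 mm (1.53) and 2.5 against 1.6 mm (1.91). It called miR827 at 2.5 against 0.4 mm (adjusted p = 0.00980), 4 members at 1.0 against 0.4 mm and 2 at 2.5 against 1.6 mm. Library totals gave called values for miR395 of 2.17 at 1.0 against 0.4 mm and -2.88 at 1.6 against 1.0 mm, and turned the uncalled value of miR827 at 1.6 against 1.0 mm to -0.21. With no filter on low counts miR395 was called at 1.6 against 1.0 mm (-2.34), 41.4% of all entries were called over all lengths in place of 67.4%, the merged miR395 entry (adjusted p = 0.0538) and miR395a (adjusted p = 0.0881) lost that call, and 0 members were called at 1.0 against 0.4 mm and 0 at 1.6 against 1.0 mm. At an unadjusted p under 0.05, 3 and 2 of the 18 members passed in these last comparisons.

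With the compared lengths alone, 0 members were called at 1.0 against 0.4 mm and 0 at 1.6 against 1.0 mm, miR399 was called at 1.0 against 0.4 mm (2.81), and the uncalled miR395 value at 2.5 against 0.4 mm turned to -0.074. These fits kept 1 and 3 members for testing, of which 1 and 0 had an unadjusted p under 0.05. With a term for the reference set, 0 members were called at 1.6 against 1.0 mm (2 at an unadjusted p under 0.05), and the uncalled values turned to -0.56 for miR827 there and to -0.69 for miR395 and -0.32 for miR399 at 2.5 against 1.6 mm. Without libraries under 50000 counts, miR395 (2.21) and miR399 (2.28) were called at 1.0 against 0.4 mm, and miR395 at 2.5 against 1.6 mm was -0.0020. Without the 5 libraries that stand apart, an alternative chosen after seeing the data, miR395 was called at 1.0 against 0.4 mm (2.57) and 1.6 against 1.0 mm (-3.73), miR399 at 1.0 against 0.4 mm (2.77) and miR827 at 2.5 against 0.4 mm (adjusted p = 0.0137), with 5 members called at 1.0 against 0.4 mm and 2 at 2.5 against 1.6 mm.

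Replicate numbers did not pair the libraries. Over 135 same-numbered pairs r ran from -0.62 to 0.79 (median 0.02), and 11 of 30 libraries correlated best with their own number. With the replicate number as a block, miR395 lost its call over all lengths (adjusted p = 0.0542), and no other call of a family or count of members changed beyond 1.5 times.

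As single libraries were left out, the members called ranged from 0 to 2 at 1.0 against 0.4 mm, 0 to 1 at 1.6 against 1.0 mm, 4 to 5 at 2.5 against 0.4 mm and 4 to 8 over all lengths. The miR395 family ranged from an adjusted p of 0.00177 to 0.264 over all lengths. Its call was lost without any 1 library of 0.4, 1.4 or 2.5 mm, without replicate 1 of 1.0 or 1.2 mm, and without replicate 1 or 3 of 1.8 or 2.0 mm. Its log2 fold change ranged from -3.66 to -1.38 at 1.6 against 1.0 mm, -0.088 to 0.52 at 2.5 against 0.4 mm and -0.40 to 1.77 at 2.5 against 1.6 mm. That of miR827 ranged from -0.51 to 1.23 at 1.6 against 1.0 mm and -0.46 to 1.15 at 2.5 against 1.6 mm. Over all lengths, miR395a lost its call without 12 single libraries (adjusted p up to 0.138), the merged miR395 entry without 1.0 mm replicate 1 (0.0583), and the miR827 entry without 2.5 mm replicate 2 (0.0600).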
